A study of Mus musculus with 12 samples.

Results

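The Notch pathway was followed in differentiating C2C12 muscle cells through 10 genes: the receptors Notch1, Notch2 and Notch3, the ligands Jag1, Jag2 and Dll1, the DNA-binding factor Rbpj, and the target genes Hes1, Hey1 and Heyl. They are a list of named genes, and every probe whose RefSeq accession maps to one of these symbols was taken, whatever its signal. This gave 12 probes for the 10 genes, among 37246 probes on the array and 19259 named genes. All 12 probes were well above background on all 12 arrays, so the filter on low values, which left 22959 probes and 13742 named genes for testing, removed none of them.

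C2C12 is an immortalised mouse myoblast line whose cells leave the cell cycle and fuse into myotubes when serum is lowered. RNA was measured on 12 one-colour arrays in 4 groups of 3: proliferating cells in medium with 10% fetal bovine serum, and cells kept for 2, 5 or 8 days in medium with 2% horse serum. All groups were the same line, with no genetic change or drug named. The labels do not say whether the 3 arrays of a stage came from separate cultures, so p-values measure only the spread between these arrays, which may be technical. Nor do they name a sort, so each array holds the RNA of a whole culture, and fewer cells of a type cannot be told apart from less RNA per cell.

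Notch receptors sit in the membrane and are activated by Delta-like and Jagged ligands on neighbouring cells. Activation cuts the receptor, and its inner part enters the nucleus, binds Rbpj and turns on Hes and Hey genes, whose products are transcriptional repressors. In muscle the pathway is known for keeping satellite cells, the stem cells of the tissue, undifferentiated, and for restraining the myogenic factors. Notch3 is best known from the mural cells around blood vessels.

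Signals are given as scaled signal, which is the spot's brightness relative to the 75th percentile of its array, with that percentile set to 1000. Different probes respond differently, so levels are compared between stages for a probe and never between genes. The median of the negative-control spots lay between 0.958 and 3.23 on this scale, and the lowest signal of any Notch probe was 26.6, for an Rbpj probe. Across probes, same-stage arrays had correlations of 0.985 to 0.994, and arrays from different stages 0.929 to 0.985. The arrays came on 3 slides: the 3 proliferation arrays shared slide 1 with day 2 array 1, day 2 arrays 2 and 3 shared slide 2 with day 5 arrays 1 and 2, and day 5 array 3 shared slide 3 with the day 8 arrays. No slide held proliferation together with day 5 or day 8, so a fit with the slide as a block (the slide-blocked fit) reaches those comparisons only by way of the stages that shared a slide. For stages that shared a slide, the change in that fit is the difference within that slide. From proliferation to day 2 it thus uses only array 1 of day 2, and from day 5 to day 8 only array 3 of day 5.

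The summed signal of muscle markers set days 5 and 8 apart from proliferation but did not separate day 2 from it. All 8 listed myoblast and myotube markers were measured, and their summed scaled signal ran from 95110 to 121300 at proliferation, 99980 to 124200 at day 2, 543400 to 615100 at day 5 and 347300 to 457000 at day 8. Singly, 5 were higher and 1 lower at day 2, 7 and 1 at day 5, and 5 and 1 at day 8. Over all genes, 20.4%, 24.3% and 25.7% were higher at these stages, and 12.2%, 25.5% and 31.1% lower. Of 8 mural and smooth muscle markers, 5 were bright enough to test, while Cnn1, Rgs5 and Kcnj8 were not. The summed signal of those 5 was 7414 to 14280 at proliferation, 26410 to 31600 at day 2, 48170 to 58000 at day 5 and 51580 to 70140 at day 8. Such a sum follows its brightest probes. Singly, 1 of the 5 was higher at day 2, 2 at day 5 and 3 at day 8. At day 5, 1 was lower. Their median log2 change was -0.085 at day 2, 0.456 at day 5 and 0.734 at day 8. Of 8 endothelial markers, 4 could be tested, and their sum was 222 to 303 at proliferation, 815 to 1100 at day 2, 701 to 908 at day 5 and 498 to 639 at day 8. Pecam1, Vwf, Emcn, Esam and Tie1 were among the 8 listed. Pecam1 was well above background on 0 of 3 arrays at proliferation, 3 at day 2, 2 at day 5 and 1 at day 8, and the others were too dim to test. Among the 4 tested, Tek, a receptor of endothelial cells, was higher at all 3 later stages (log2 changes of 2.54, 2.38 and 1.97). Kdr, another such receptor, was lower at all 3 (-1.06, -2.92 and -3.18), Cdh5 was lower at days 5 and 8 (-1.80 and -2.17), and Pecam1 passed at none. Kdr stood clear of background on only 2 arrays at day 5 and 1 at day 8, and Cdh5 on 2 at each of these stages. The sizes of their falls at days 5 and 8 thus rest partly on signals near background. The part of such cells in the Notch values was not tested.

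Promoter sequence was at hand for 7 of the 10 genes in RefSeq (GRCm38.p6). Windows of 250 bases before each annotated gene start were searched on both strands for TGGGAA (the core of the Rbpj site), GTGGGAA (its longer form), CANNTG (the E-box of myogenic factors) and CACNAG (the N-box core). Over all 32851 windows of this length, 21.6% held TGGGAA, 5.42% GTGGGAA, 66.2% CANNTG and 36.7% CACNAG. The 4 windows printed here belong to Dll1 and Notch3, the ligand and the receptor with the highest rises, to Jag1, a ligand that did not pass the test at any stage, and to Rbpj. Dll1 and Rbpj each have a second annotated start, whose window is not printed. Capitals mark CANNTG in the Dll1, Jag1 and Notch3 windows and TGGGAA in the Rbpj window. The windows are chr17:15376933-15377182 (minus strand) for Dll1, chr17:32166891-32167140 (minus) for Notch3, chr2:137116521-137116770 (minus) for Jag1 and chr5:53590096-53590345 (plus) for Rbpj.
Dll1: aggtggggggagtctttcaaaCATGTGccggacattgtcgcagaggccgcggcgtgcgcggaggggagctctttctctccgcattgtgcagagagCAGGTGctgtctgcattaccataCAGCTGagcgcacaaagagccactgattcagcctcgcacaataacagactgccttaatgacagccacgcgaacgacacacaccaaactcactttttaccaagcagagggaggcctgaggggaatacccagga
Notch3: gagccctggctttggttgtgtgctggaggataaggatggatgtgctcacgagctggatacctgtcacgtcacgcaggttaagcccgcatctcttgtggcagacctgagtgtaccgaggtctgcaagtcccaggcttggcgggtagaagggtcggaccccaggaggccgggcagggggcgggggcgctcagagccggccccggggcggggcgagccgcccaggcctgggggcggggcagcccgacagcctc
Jag1: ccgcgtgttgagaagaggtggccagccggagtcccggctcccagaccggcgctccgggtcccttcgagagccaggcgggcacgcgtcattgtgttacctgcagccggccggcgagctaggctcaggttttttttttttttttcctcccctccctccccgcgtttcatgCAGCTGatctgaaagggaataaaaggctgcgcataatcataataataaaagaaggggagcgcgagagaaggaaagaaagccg
Rbpj: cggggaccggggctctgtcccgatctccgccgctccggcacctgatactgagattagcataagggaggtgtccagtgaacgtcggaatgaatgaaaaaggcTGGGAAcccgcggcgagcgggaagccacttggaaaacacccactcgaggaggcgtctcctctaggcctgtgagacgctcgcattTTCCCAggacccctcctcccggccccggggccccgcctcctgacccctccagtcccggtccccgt

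The printed Dll1 window held 3 CANNTG matches, which begin 229, 155 and 132 bases before the gene start, and its other window held 1, at 220 bases. The printed Rbpj window held 2, at 212 and 124 bases, which are not in capitals. The Jag1 window held 1, at 82 bases, and the Notch3 window held no CANNTG and no TGGGAA but 2 CACNAG matches, at 204 and 159 bases. Among the windows of these 7 genes, TGGGAA was found only at Rbpj: 149 and 65 bases before the start in the printed window, and 205 bases before it in the other. The Rbpj windows overlap, and the match at 205 bases is the same site as the one at 65 bases. Notch1 and Notch2 each held 1 CACNAG, and Jag2 held none of the 4 motifs. These matches describe letters in a window and were not set against any binding data.

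Most of these Notch genes changed between stages, and the pathway did not move as a block. Against proliferation, 6 of the 10 genes were higher and 0 lower at day 2 (limma, adjusted p under 0.05), where 32.6% of the 13742 tested genes changed, 20.4% upward and 12.2% downward. At an unadjusted p under 0.05, 1 gene (Jag2) was lower at day 2. At day 5, 4 were higher and 1 lower, where 49.7% of all genes changed, 24.3% upward and 25.5% downward. At day 8, 4 were higher and 2 lower, where 56.7% changed, 25.7% upward and 31.1% downward. At days 5 and 8 the share of these genes that changed was thus near the background. The median log2 change of the 10 genes was 0.82 at day 2, 0.46 at day 5 and 0.17 at day 8, beside 0.10, -0.02 and -0.12 over all genes tested. Over the 4 stages, the F test gave a change in 8 of the 10, beside 68.1% of all genes. Jag1 and Rbpj were the other two. In the slide-blocked fit, 4 of the 6 calls at day 2 remained. There, 3 genes (Notch3, Dll1 and Heyl) kept their rise at days 5 and 8, and no other call remained at those 2 stages.

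**Figure D1:**
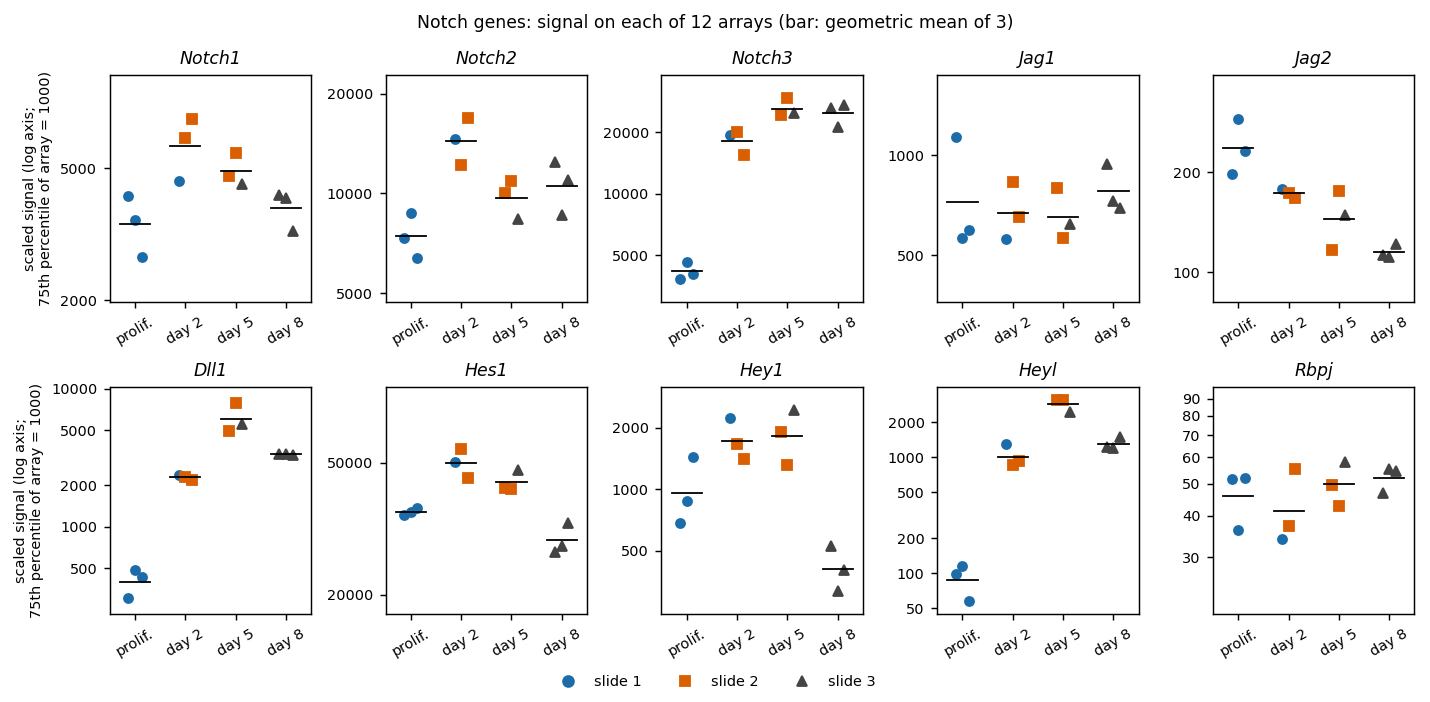
Scaled signal of each Notch gene on each of the 12 arrays (log axis, 75th percentile of an array = 1000), by stage; points are arrays, colour and shape give the slide, and bars are geometric means of 3 arrays. Notch3, Dll1 and Heyl lie above all their proliferation arrays at every later stage, and Hey1 drops at day 8 below all other arrays.

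Among the receptors, Notch3 rose strongly and stayed high. Its scaled signal was 3843, 4650 and 4055 on the proliferation arrays, 19360, 19980 and 15440 at day 2, 24220, 29500 and 24970 at day 5, and 26260, 21220 and 27230 at day 8. Every array after the switch was brighter than every proliferation array, and days 5 and 8 overlapped. The log2 change from proliferation was 2.12 ± 0.157 (SE, n = 3 arrays per stage) at day 2, 2.65 at day 5 and 2.57 at day 8, which is 4.35-fold, 6.27-fold and 5.94-fold (limma, adjusted p = 1.89e-05, 2.83e-07 and 2.59e-07). These calls held in every processing setting run, with log2 changes of 1.97 to 2.24, 2.56 to 2.82 and 2.50 to 2.81. Within slide 1 the day 2 array lay 2.21 log2 units above the 3 proliferation arrays. From day 2 to day 5 Notch3 rose further by 0.53 (1.44-fold, adjusted p = 0.0265), a call that was lost in the slide-blocked fit (adjusted p = 0.0667), without the filter on dim probes (0.0713), without day 2 array 3 (0.102) and without day 5 array 2 (0.0898).

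Pdgfrb, a growth factor receptor of mural cells, was the 1 mural marker that also rose at all 3 later stages, by 1.37 ± 0.235, 2.26 and 2.52 on the log2 scale. Myh11, the smooth muscle myosin, was not higher at any stage: its changes were -0.09, -0.81 and -0.32, and the fall at day 5 passed the test (adjusted p = 0.0351). Calls of marker genes were not run under other processing settings. Of the 5 mural markers tested, 1 was higher at day 2, 2 at day 5 and 3 at day 8, beside 20.4%, 24.3% and 25.7% of all genes. The part of such cells in the rise of Notch3 was not tested.

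Notch1 and Notch2, the receptors best known from satellite cells, were highest at day 2. Notch1 gave 4133, 3494 and 2694 at proliferation, 4589, 6156 and 7038 at day 2, 4750, 5567 and 4494 at day 5, and 4159, 4060 and 3232 at day 8. Day 2 and day 5 lay above all proliferation arrays, while day 8 overlapped them. The rise at day 2 was 0.79 ± 0.205 (1.72-fold, adjusted p = 0.0155). It did not pass with normexp background correction (0.49, adjusted p = 0.131), in the slide-blocked fit (0.44, adjusted p = 0.285) or without day 2 array 3 (0.65, adjusted p = 0.0576). At day 5 the change was 0.54 (adjusted p = 0.051). That value passed without proliferation array 1 (0.68, adjusted p = 0.0282), day 2 array 1 (0.0351) or day 2 array 3 (0.0478). At day 8 it was 0.16 (adjusted p = 0.523).

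Notch2 read 7347, 8756 and 6385 at proliferation, then 14630, 12180 and 16840 at day 2, 10020, 10900 and 8395 at day 5, and 12470, 8610 and 10970 at day 8. The day 2 arrays stood above all others, except that day 8 array 1 lay above the lowest of them. The rise at day 2 was 0.96 ± 0.191 (1.94-fold, adjusted p = 0.00423) and held in every setting run (0.72 to 1.08). At day 5 the change was 0.39 (adjusted p = 0.12). At day 8 it was 0.51 (1.42-fold, adjusted p = 0.0431), although the arrays of the 2 stages overlapped. This call was lost in 10 of 19 settings, the slide-blocked fit among them (0.85, adjusted p = 0.251). Leaving out proliferation array 1 ended it (adjusted p = 0.0866), as did leaving out proliferation array 3 (0.141), day 2 array 1 (0.0543), day 5 array 1 (0.0572), day 8 array 1 (0.151) or day 8 array 3 (0.103).

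The ligands went different ways. Dll1, a Delta-like ligand that cells present to their neighbours, rose steeply to day 5 and then eased. Its scaled signal was 302, 488 and 433 at proliferation, 2385, 2282 and 2198 at day 2, 4910, 7957 and 5555 at day 5, and 3393, 3379 and 3312 at day 8. No array of a stage overlapped any array of another stage, and the stages ran proliferation, day 2, day 8, day 5 from low to high. The log2 changes from proliferation were 2.52 ± 0.206, 3.91 and 3.07, or 5.72-fold, 15.0-fold and 8.41-fold (limma, adjusted p = 2.89e-05, 1.15e-07 and 5.1e-07). All 3 held in every setting run, with ranges of 2.31 to 2.66, 3.71 to 4.06 and 2.87 to 3.33.

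Between later stages, Dll1 rose 2.63-fold from day 2 to day 5 (1.39 on the log2 scale, adjusted p = 4.21e-04), which held in every setting. Within slide 2, where 2 arrays of each stage sat together, the change was 1.48. From day 5 to day 8 it fell by 0.84 on the log2 scale (1.79-fold lower, adjusted p = 0.0264). That fall did not pass in the slide-blocked fit (adjusted p = 0.236), without the filter on dim probes (0.0699) or without non-uniform spots (0.244). It also did not pass without day 5 array 2 (0.0761) or day 8 array 1 (0.0712), 2 (0.0645) or 3 (0.0737).

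Jag2, a Jagged ligand, declined over the course. It gave 197, 289 and 233 at proliferation, 178, 173 and 168 at day 2, 117, 176 and 148 at day 5, and 112, 111 and 122 at day 8. All later arrays lay below all proliferation arrays, and the day 5 arrays overlapped both neighbours. The log2 change was -0.46 ± 0.176 at day 2 (adjusted p = 0.073), -0.71 at day 5 (1.63-fold lower, adjusted p = 0.00675) and -1.04 at day 8 (2.06-fold lower, adjusted p = 5.06e-04). The day 2 value passed with the 75th percentile taken over probes above background on all arrays (-0.54, adjusted p = 0.035) and without proliferation array 1 (-0.59, adjusted p = 0.0437). In the slide-blocked fit the falls were -0.66 and -1.03 but did not pass (adjusted p = 0.225 and 0.157), and with normexp the day 5 fall was -0.41 (adjusted p = 0.0641).

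Jag1, the other Jagged ligand, passed no test. Its values were 1134, 565 and 597 at proliferation, 559, 832 and 652 at day 2, 798, 563 and 622 at day 5, and 943, 730 and 694 at day 8. The 4 stages overlapped, and proliferation array 1 was the highest of all 12. The changes were -0.11 ± 0.272, -0.15 and 0.11 (adjusted p = 0.783, 0.681 and 0.76), and the error leaves room for a change in either direction.

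**Figure D2:**
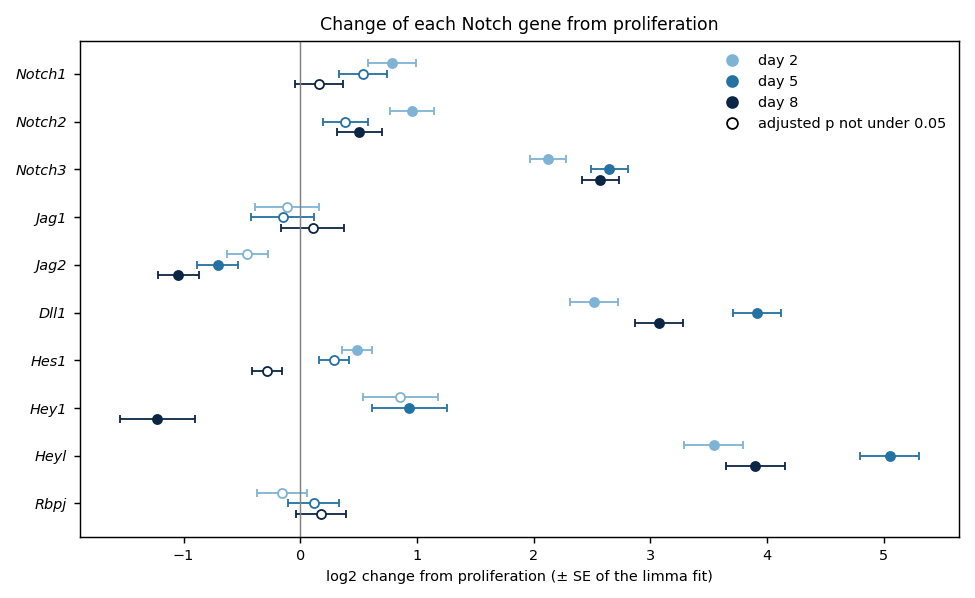
Log2 change of each Notch gene from proliferation at days 2, 5 and 8, with the standard error of the limma fit (n = 3 arrays per stage); open points did not pass an adjusted p of 0.05. Heyl (5.05 at day 5) and Dll1 (3.91) moved furthest, Jag2 and Hey1 end below 0 at day 8, and Jag1 and Rbpj have only open points.

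The target genes showed the widest spread. Heyl, a Hey-family repressor, changed most of the 10 genes. It read 98.1, 115 and 57.8 at proliferation, 1296, 853 and 938 at day 2, 3118, 3091 and 2469 at day 5, and 1221, 1192 and 1488 at day 8. Each later array was brighter than each proliferation array, day 5 lay above all others, and day 8 overlapped day 2. The log2 changes were 3.54 ± 0.253, 5.05 and 3.90, or 11.7-fold, 33.1-fold and 14.9-fold (limma, adjusted p = 1.51e-05, 8.07e-08 and 4.1e-07).

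The Heyl calls against proliferation held in every setting run, but their size depended on it. With normexp background correction the changes were 2.58, 4.06 and 3.08, and in the slide-blocked fit they were 3.90, 5.70 and 4.76. From day 2 to day 5 Heyl rose 2.84-fold (1.51, adjusted p = 0.001), and by 1.80 within slide 2. From day 5 to day 8 it fell by 1.15 on the log2 scale (2.22-fold lower, adjusted p = 0.0169). This fall was lost in the slide-blocked fit (-0.93, adjusted p = 0.171), and without day 5 array 1 (0.0661) or 2 (0.0537) or day 8 array 1 (0.0566) or 2 (0.0539).

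Hey1, a close relative of Heyl, took a different course and ended low. Its signal was 686, 874 and 1441 at proliferation, 2220, 1656 and 1400 at day 2, 1894, 1310 and 2434 at day 5, and 528, 318 and 404 at day 8. Proliferation array 3 reached into the ranges of days 2 and 5, whereas all 3 day 8 arrays lay below every other array. The change was 0.86 ± 0.320 at day 2 (adjusted p = 0.065), 0.93 at day 5 (1.91-fold, adjusted p = 0.0327) and -1.22 at day 8 (2.34-fold lower, adjusted p = 0.0077). From day 5 to day 8 Hey1 fell by 2.16 on the log2 scale (4.47-fold lower, adjusted p = 0.00308), and this fall held in every setting run (-2.58 to -1.91). Within slide 3, the day 8 arrays lay 2.58 log2 units below the day 5 array.

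The other Hey1 calls were less settled. At day 2 the rise passed with normexp (1.07, adjusted p = 0.0117) and without proliferation array 3 (1.16, adjusted p = 0.0205). At day 5 it did not pass in the slide-blocked fit (1.27, adjusted p = 0.135), without the dim-probe filter (0.0665), or when one of proliferation array 1 (0.122), proliferation array 2 (0.0871), day 5 array 1 (0.0788) and day 5 array 3 (0.109) was left out. At day 8 the fall did not pass in the slide-blocked fit (-1.31, adjusted p = 0.24).

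Hes1, the classical Notch target, moved little. It gave 34890, 35530 and 36580 at proliferation, 50170, 54860 and 45130 at day 2, 42010, 41660 and 47470 at day 5, and 27010, 28120 and 32930 at day 8. Days 2 and 5 lay above all proliferation arrays and day 8 below them. Its change was 0.49 ± 0.127 at day 2 (1.40-fold, adjusted p = 0.0159), 0.29 at day 5 (adjusted p = 0.0824) and -0.29 at day 8 (adjusted p = 0.0782). The rise at day 2 did not pass with quantile normalization (0.31, adjusted p = 0.0695), without the dim-probe filter (0.0507), in the slide-blocked fit (0.111) or without day 2 array 2 (0.0592). At day 5 it passed with normexp (0.47, adjusted p = 0.0108). At day 8 the fall passed with the other percentile (-0.30, adjusted p = 0.0465) and without day 8 array 3 (-0.37, adjusted p = 0.0473). From day 5 to day 8 Hes1 fell by 0.58 on the log2 scale (1.49-fold lower, adjusted p = 0.017). That fall was lost in the slide-blocked fit (0.0884), without the dim-probe filter (0.058), without non-uniform spots (0.0594), and without day 5 array 1 (0.0516) or day 8 array 1 (0.0648).

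Rbpj, through which all these receptors reach DNA, did not pass any test. Its 3 probes (RefSeq NM_001080928, NM_009035 and NM_001080927) ranged from 34.0 to 58.3, 26.6 to 52.8 and 28.9 to 55.0 in scaled signal over the 12 arrays. For the first and brightest, the values were 51.6, 36.2 and 52.2 at proliferation, 34.0, 37.3 and 55.6 at day 2, 49.6, 42.8 and 58.3 at day 5, and 46.9, 55.3 and 54.5 at day 8. The stages overlapped on all 3 probes. The changes of the first probe were -0.16 ± 0.216, 0.11 and 0.18, those of the second -0.16, -0.14 and 0.18, and those of the third -0.32, -0.10 and 0.13. These are dim signals, and in the slide-blocked fit the day 8 change of the first probe was -0.58, also uncalled.

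Between later stages, 3 of the 10 genes rose and 1 fell from day 2 to day 5, where 31.7% of all genes changed, 13.6% upward and 18.1% downward. The risers were Notch3, Dll1 and Heyl, described above, and Notch2 fell by 0.57 on the log2 scale (adjusted p = 0.044). The Notch2 fall was lost in 12 of 19 settings, and the count of 4 became 2 without day 2 array 3. From day 5 to day 8, 0 of the 10 rose and 4 fell (Dll1, Hes1, Hey1 and Heyl), where 13.5% of all genes changed, 6.19% upward and 7.33% downward. At an unadjusted p under 0.05 limma gave 0 that rose as well. The count of 4 fell to 1 without day 8 array 1, and to 2 without day 5 array 1, day 5 array 2 or day 8 array 2. The median change of the 10 genes was 0.02 and -0.35 in these comparisons, beside -0.11 and -0.09 over all genes.

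Within the slides that held both stages, the order was kept for the genes that moved most. On slide 1, day 2 array 1 lay above the 3 proliferation arrays by 3.90 for Heyl, 2.58 for Dll1, 1.22 for Hey1, 0.98 for Notch2, 0.49 for Hes1 and 0.44 for Notch1 on the log2 scale. On slide 2, day 5 against day 2 gave 0.61 for Notch3 and -0.45 for Notch2. On slide 3, the 3 day 8 arrays against the single day 5 array gave -0.73 for Dll1, -0.70 for Hes1 and -0.93 for Heyl. Each of these within-slide values rests on 4 arrays. They are the same estimates as those of the slide-blocked fit and are no separate check.

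The scanner's flag for uneven spots fell on several Notch probes. Notch1, Notch2 and Jag1 were flagged on all 12 arrays, Hey1 and Heyl on 10, Dll1 on 6, Hes1 on 2, and Notch3, Jag2 and Rbpj on 0. Such spots were kept. Without them Notch3 kept its values, and Dll1 kept 3.80 at day 5 and 3.08 at day 8, while the rise of Heyl at any stage and that of Dll1 at day 2 could not be computed.

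**Figure D3:**
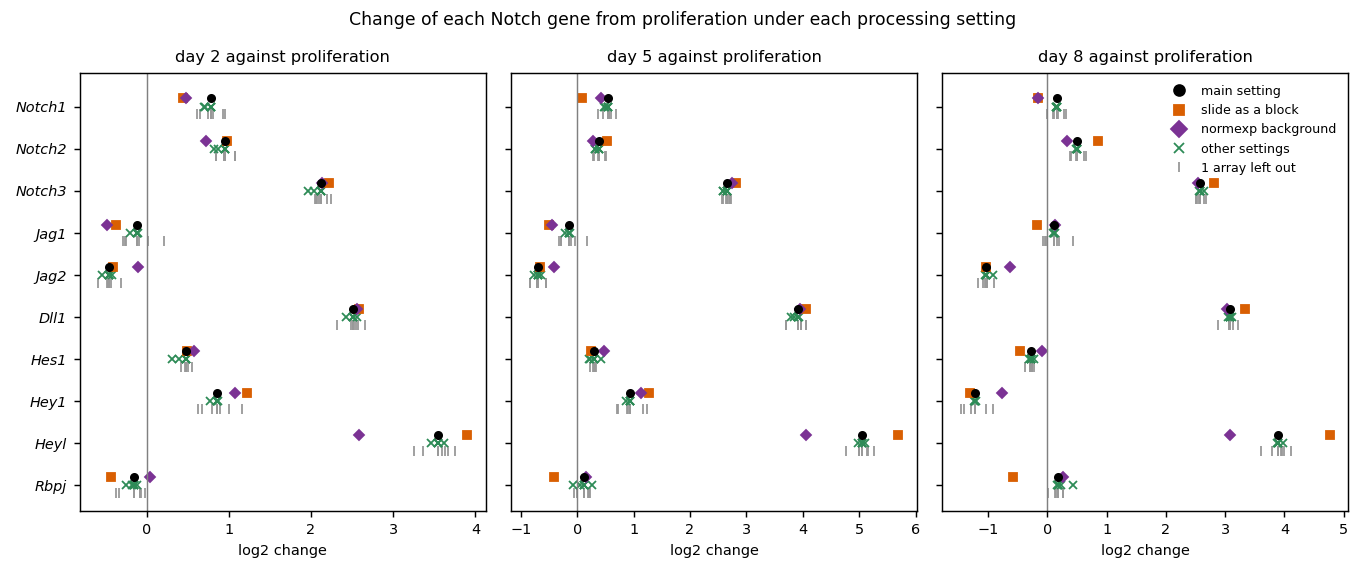
Log2 change of each Notch gene from proliferation at days 2, 5 and 8 under each processing setting: circles the main setting, squares the slide-blocked fit, diamonds normexp background correction, crosses the other settings, and ticks the fits with 1 array left out. The marks of Notch3, Dll1 and Heyl lie far right of 0 in all 3 panels, and those of Jag1 and Rbpj lie on both sides of 0.

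The rest of the pathway was read from a list of 61 further genes, of which 59 were on the array and 51 could be tested. The ligand Dll4, the receptor Notch4, the cofactors Crebbp and Rbpjl and the targets Hes2, Hes3, Hes5 and Hey2 were left untested, since no stage had all 3 arrays well above background. At day 2, 13 of the 51 were higher and 2 lower, at day 5 it was 18 and 7, and at day 8 it was 17 and 10, beside the 32.6%, 49.7% and 56.7% of all genes that changed. The day 2 count of 15 became 9 without proliferation array 1. Their median log2 change was 0.27, 0.33 and 0.25.

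Enzymes that add sugars to the receptor tune which ligands it answers. Of 5 tested, 3 were higher at day 2, 3 at day 5 and 2 at day 8, beside 20.4%, 24.3% and 25.7% of all genes, and 0 were lower, also at an unadjusted p under 0.05 in limma. Pofut1 and Poglut1 passed at none of these stages. Mfng, a Fringe glycosyltransferase, read 29.1, 29.9 and 39.7 at proliferation, 102, 99.4 and 83.6 at day 2, 1614, 1666 and 1655 at day 5, and 450, 303 and 458 at day 8. Its log2 changes were 1.54 ± 0.186, 5.66 and 3.61 (2.90-fold, 50.5-fold and 12.2-fold, adjusted p = 2.44e-04, 4.28e-09 and 7.55e-08). They held in every setting, with normexp giving the smallest (1.11, 4.77 and 2.81). Like Dll1 and Heyl, Mfng was highest at day 5, and no arrays of different stages overlapped. Lfng, a second Fringe, rose 1.70-fold at day 2 and 1.82-fold at day 5 (0.77 ± 0.131 and 0.87) in every setting. Rfng, the third, rose by 0.90 ± 0.189 at day 2 and 0.75 at day 5, but not in the slide-blocked fit (adjusted p = 0.0936 and 0.265).

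Among 9 tested genes of receptor cleavage, 4 were higher at each of the 3 later stages and 0 lower (1 at day 2 at an unadjusted p under 0.05 in limma). Over all genes, 20.4%, 24.3% and 25.7% were higher at these stages, and 12.2%, 25.5% and 31.1% lower. Psen2, a catalytic subunit of gamma-secretase, which makes the last cut, gave 1518, 1926 and 2252 at proliferation, 4991, 4002 and 3898 at day 2, 7208, 6653 and 7203 at day 5, and 8715, 7062 and 8375 at day 8. Its rise was 1.19 ± 0.168, 1.90 and 2.10 on the log2 scale (2.28-fold, 3.74-fold and 4.28-fold), and held in every setting. Ncstn, another subunit, rose 1.67-fold at day 5 (0.74 ± 0.134, adjusted p = 0.00102), also in every setting. Adam17, a protease that can make the outer cut, rose 1.55-fold at day 5 (0.63 ± 0.171, adjusted p = 0.0109) in every setting run.

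Ubiquitin ligases and endocytic adaptors, which move ligands and receptors, changed in both directions: of 13 tested, 5 rose and 1 fell at day 2, and 5 rose and 2 fell at days 5 and 8. Over all genes, 32.6%, 49.7% and 56.7% changed at days 2, 5 and 8. At days 5 and 8 the share of these ligases and adaptors was thus near the background. The paralogs Neurl1a and Neurl1b, ligases that act on ligands, were both higher at day 2, by 0.67 ± 0.168 and 0.79 ± 0.140 on the log2 scale (adjusted p = 0.0129 and 0.00227), and went opposite ways after it. Neither day 2 rise passed in the slide-blocked fit (adjusted p = 0.141 and 0.0558). That of Neurl1a also did not with normexp (0.0797), without proliferation array 2 (0.0521) or without day 2 array 2 (0.0512). Neurl1a read 11580, 9358 and 13370 at proliferation and 56030, 52530 and 55550 at day 5, a rise of 2.27 ± 0.168 (4.83-fold, adjusted p = 1.39e-06), and stood 3.35-fold up at day 8 (1.74). Neurl1b read 4700, 5060 and 5278 at proliferation, 8139, 8436 and 9386 at day 2, 1884, 2323 and 2210 at day 5 and 1496, 1342 and 1140 at day 8, falls below proliferation of 1.23 and 1.93 on the log2 scale (log2 changes of -1.23 and -1.93, adjusted p = 3.42e-05 and 9.57e-07). These calls at days 5 and 8 held in every setting. Dtx4, a Deltex ligase, rose 3.87-fold at day 2 and 4.81-fold at day 5 (1.95 ± 0.316 and 2.27), and Dtx3l rose 2.14-fold at day 2 and 2.85-fold at day 8 (SE 0.175 on the log2 scale), each in every setting run.

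Of 7 nuclear coactivators tested, 0 changed at day 2 in limma (1 at an unadjusted p under 0.05), and 3 rose and 1 fell at days 5 and 8. Kat2a, an acetyltransferase, fell 2.05-fold at day 8 (-1.04 ± 0.108, adjusted p = 1.52e-05) in every setting. Its paralog Kat2b rose 1.97-fold (0.98 ± 0.137, adjusted p = 1.36e-04), which did not pass in the slide-blocked fit (adjusted p = 0.0708). Of 11 corepressors, 0 rose and 1 fell at day 2, 2 rose and 1 fell at day 5, and 2 rose and 2 fell at day 8. Over all genes, 32.6%, 49.7% and 56.7% changed at days 2, 5 and 8. The coactivators were near that share at days 5 and 8, and the corepressors were below it at each stage. Ctbp2 fell 1.70-fold at day 5 and 1.92-fold at day 8 (-0.77 ± 0.132 and -0.94) in every setting.

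The other genes listed as ligands or targets that could be tested were mostly lower at day 8, where 31.1% of all genes were lower. Among these falls at day 8, only that of Nrarp held in every setting. Dll3, Dlk1 and Dner, the 3 further tested genes listed as ligands, were all lower at day 8, by 3.97-fold, 2.51-fold and 2.51-fold (-1.99 ± 0.408, -1.33 ± 0.364 and -1.33 ± 0.316). Their action on Notch receptors was not tested. None of the 3 passed in the slide-blocked fit (adjusted p = 0.391, 0.113 and 0.436), and Dner fell by only 0.16 with normexp. Nrarp, a feedback inhibitor that is itself a Notch target, read 407, 455 and 446 at proliferation, 515, 567 and 490 at day 2, 260, 299 and 310 at day 5, and 178, 187 and 163 at day 8. It fell 2.48-fold at day 8 (-1.31 ± 0.123, adjusted p = 6.7e-06), in every setting run. Hes6, a Hes-family protein known to promote muscle differentiation, rose 2.91-fold at day 5 (1.54 ± 0.238, adjusted p = 3.25e-04), also in every setting. Hes7 was 1.72-fold lower at day 8 (-0.78 ± 0.169), which did not pass in the slide-blocked fit (adjusted p = 0.532).

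**Figure D4:**
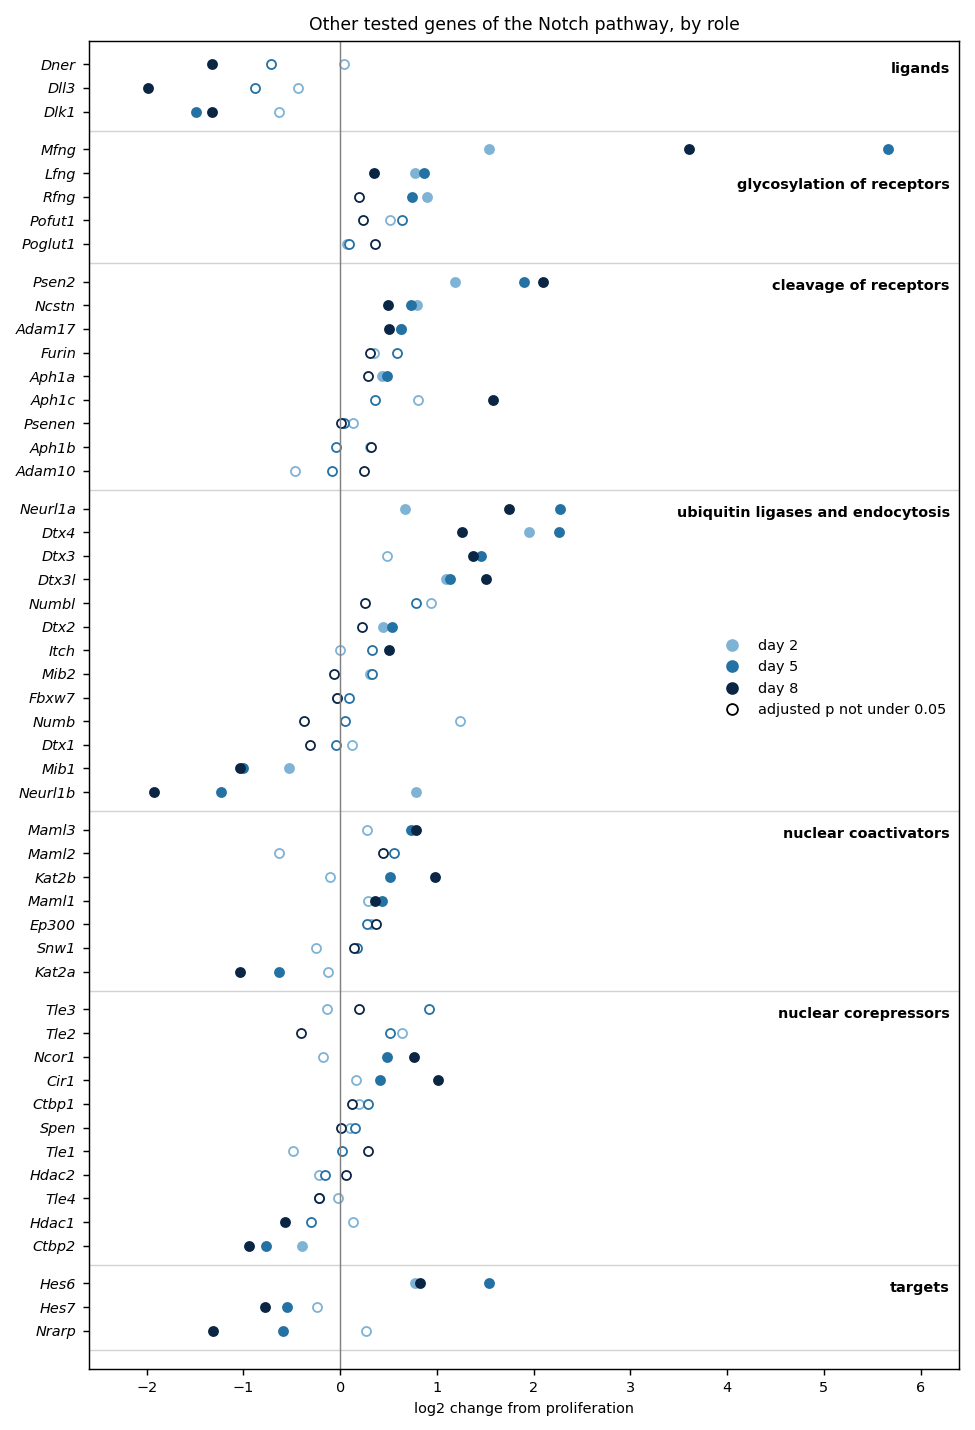
Log2 change from proliferation at days 2, 5 and 8 for the 51 other tested genes of the Notch pathway, grouped by role; open points did not pass an adjusted p of 0.05. Mfng (5.66 at day 5) stands furthest right, and Dll3 and Neurl1b reach furthest left at day 8.

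For each gene that changed by at least 1 log2 unit, the 3 tested genes with the nearest set of 3 log2 changes were found by root mean square difference over 13741 other genes. Nearest to Notch3 were Plcxd1 (difference 0.103), Synpo (0.11) and Plekha6 (0.197), and 77 genes lay within 0.5 log2 units. Nearest to Dll1 were Adamts15 (0.138), Card10 (0.188) and Ms4a8a (0.252), with 19 genes within that distance. Heyl had 0 such genes: its nearest were Krt31 (0.564), Zbp1 (0.688) and Sox8 (0.823). Jag2 was nearest to Wdr55 (0.031), Aste1 (0.043) and Srm (0.045), with 2761 genes within 0.5 log2 units. Hey1 was nearest to Lrrc36 (0.138), Mstn (0.17) and Krt86 (0.198), with 102 genes within it.

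The likeness depended on background correction for several of these. With normexp the day 5 change of Plcxd1 was 0.79 in place of 2.58, and that of Adamts15 was 1.77 in place of 3.85, while Card10 (3.70 to 3.93 in every setting) and Synpo (2.46 to 2.89) kept theirs. Lrrc36 and Mstn were lower at day 8 as Hey1 was (-1.04 and -1.17) but higher with normexp (0.41 and 0.36), so their likeness to Hey1 at that stage was not kept. These distances rest on 4 stage means and describe courses only.

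**Figure D5:**
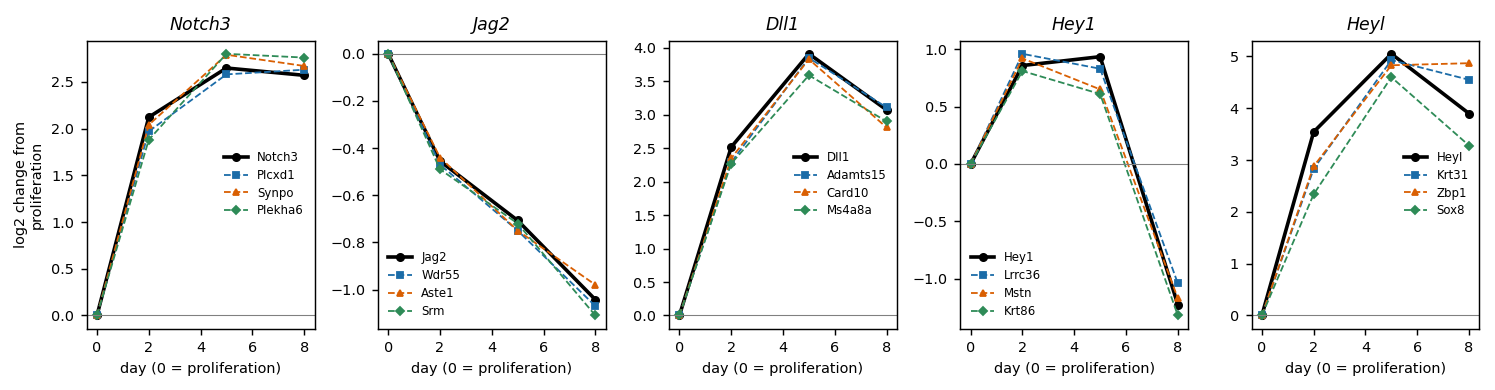
Log2 change from proliferation (day 0) at days 2, 5 and 8 for Notch3, Jag2, Dll1, Hey1 and Heyl (black) and the 3 tested genes with the nearest changes (dashed). The dashed lines run on the black one for Jag2 (differences of 0.031 to 0.045) and run apart from it for Heyl (0.564 to 0.823).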

How the data were processed

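RNA from C2C12 cells was hybridised to 12 one-colour Agilent arrays, 3 per stage, and the authors' deposited files hold each array's scanner output. Per the submitters' processing notes, the software was Agilent Feature Extraction, version 10.5.1.1. The processed green intensity, background-treated by that software per the file headers, is in scanner units and not normalized between arrays. The array header names build mm9, and symbols came from RefSeq (GRCm38.p6) by accession. Here the intensity was taken to log2, spots flagged as population outliers were left out, and each array's 75th percentile was subtracted. That percentile lay between 1256 and 1934. The number of arrays limits the precision.

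A probe entered the test if the scanner called it well above background on every array of some stage. Stage means were fitted over all arrays with limma 3.58.1 (lmFit, eBayes) in R 4.3.3, with Benjamini-Hochberg adjustment over 22959 probes and a threshold of 0.05. The fit was tested on simulated data. A gene's brightest tested probe stands for it. The genes, the lists and the rule for named genes (every member, up to 4 changed genes per pathway role, and 3 like genes per member) were chosen with earlier results of these data known. Alternatives varied background correction, scaling, dim-probe filter, slide, replicate number, uneven spots, choice of probe and arrays. They were run for the members, the other pathway genes and the like genes, and not for the cell type markers. Normexp (offset 50) used median signals, since the files used here give no mean signal. One gene of the pathway list is not reported here. Promoter windows of Hes1, Hey1 and Heyl were not used here.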

Additional observations from a re-analysis of the deposited data

How the results depend on the processing

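Of the single-gene changes recomputed under the alternatives, 3442 kept their direction and side of the threshold, 195 lost a call, 47 gained one and 2 reversed. The reversed ones were both with normexp at day 8: Lrrc36 at 0.406 (adjusted p = 0.0349) and Mstn at 0.359 (adjusted p = 0.0756). The cause was not tested.

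Counts of the 10 Notch genes that changed moved as follows. With the slide as a block they were 4 in place of 6 at day 2, 3 in place of 5 at day 5 and 3 in place of 6 at day 8. Between later stages they were 2 in place of 4 from day 2 to day 5 and 1 in place of 4 from day 5 to day 8. Over all stages they were 5 in place of 8. Without the dim-probe filter, which tests more probes, they were 2 from day 2 to day 5 and 2 from day 5 to day 8. Without uneven spots fewer genes had values, and the counts were 2 of 4 at day 2, 3 of 5 at day 5, 3 of 5 at day 8, 1 of 4 from day 2 to day 5, 0 of 5 from day 5 to day 8 (limma, 1 at an unadjusted p under 0.05) and 3 of 4 over all stages. With 1 array left out at a time they ran from 5 to 7 at day 2, 4 to 6 at day 5, 5 to 6 at day 8, 2 to 4 from day 2 to day 5, 1 to 4 from day 5 to day 8, and 7 to 8 over all stages.

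For the other pathway genes, the counts of 15, 25 and 27 at days 2, 5 and 8 became 9, 12 and 8 with the slide as a block and 5 of 29, 14 of 31 and 16 of 32 without uneven spots. The day 2 count was 9 without the dim-probe filter. With 1 array left out they ran from 9 to 17, 23 to 27 and 24 to 27.

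The labels do not say whether replicate numbers pair the arrays. The deviations of 18 same-numbered pairs from their stage means correlated at -0.16 to 0.24, with 5 over 0.1. Those of 36 differently numbered pairs correlated at -0.26 to 0.22, with 6 over 0.1. With so few arrays per stage, these values cannot decide whether the numbers pair cultures. With the replicate number as a block, the counts of Notch genes were 6, 5, 5, 3, 4 and 8 in the order above, and those of the other pathway genes 12, 27 and 26. Among the Notch genes that block ended only the calls of Notch2 at day 8 (adjusted p = 0.0642) and from day 2 to day 5 (0.0692).

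The median log2 change of all tested probes at days 2, 5 and 8 was 0.07, -0.02 and -0.12. Under the other scalings it was 0.05, 0.03 and 0.02 (quantile) and -0.02, -0.09 and -0.14 (75th percentile of those probes that every array measured above background). It was 0.21, 0.14 and 0.15 with normexp background correction, and -0.12, -0.32 and -0.52 without the dim-probe filter. At day 2, 4212 probes were higher and 2817 lower, beside 6031 and 2171 with normexp and 3493 and 3473 with the other percentile. At days 5 and 8, 5440 and 5809 were higher and 5477 and 6789 lower, beside 6253 and 7085 higher and 4130 and 4599 lower with normexp. The Rbpj probes were well above background but dim, with scaled signals of 26.6 to 58.3.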

Other observations

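Heyl and Nrarp are both named as Notch targets, and both were measured above background on all 12 arrays. At day 8 Heyl lay 3.90 log2 units above proliferation and Nrarp 1.31 below it (log2 change of -1.31), each in every setting run. Of the 6 tested genes listed as targets, Heyl and Hes6 were higher at day 8, beside 25.7% of all genes. Hey1, Hes7 and Nrarp were lower, beside 31.1%, and Hes1 did not pass (-0.29, adjusted p = 0.0782 in limma). Hes6 was listed as a Hes-family gene, and whether Notch drives it was not tested. The calls of Hey1, Hes7 and Hes6 did not pass in the fit that blocks the slide (adjusted p = 0.24, 0.532 and 0.068), and that of Hes6 did not without proliferation array 1 (adjusted p = 0.0515).

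Of 7 satellite and reserve cell markers tested, 4 were higher and 1 lower at day 2, 5 and 1 at day 5, and 4 and 1 at day 8. Over all genes, 20.4%, 24.3% and 25.7% were higher at these stages, and 12.2%, 25.5% and 31.1% lower. The markers' log2 changes ran from -0.68 to 0.98 at day 2, -0.93 to 2.04 at day 5 and -0.93 to 1.69 at day 8. Pax7, the factor that marks satellite cells, rose by 0.56 ± 0.163, 1.11 and 1.03 on the log2 scale (adjusted p = 0.0244, 2.21e-04 and 3.22e-04 in limma). Their summed scaled signal was 42620 to 56340 at proliferation, 56750 to 88230 at day 2, 73820 to 76670 at day 5 and 45490 to 62300 at day 8. The part of such cells in the Notch values was not tested.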
